A study of Rattus norvegicus with 172 samples.

Results

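The genes described here are 10 transcripts of young neurons and of growing axons: the transcription factors Sox11 and Sox4, the microtubule-binding protein Dcx (doublecortin), the beta-tubulins Tubb3, Tubb2b and Tubb6, the growth cone proteins Gap43, Stmn2 and Dpysl3, and the calcium-binding protein Calb2 (calretinin). They were chosen by name, and 22 of the 31099 probe sets on the array carry one of these symbols. For each gene the brightest probe set was used, and 10 of the 10 genes were among the 10761 genes tested.

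The study collected dentate granule cells by laser capture from cresyl violet stained hippocampal sections of male Sprague-Dawley rats in 4 models of epilepsy. RNA of 1 rat was hybridised to 1 Affymetrix array, or to 2 arrays for 8 of the rats, so that 172 arrays describe 164 rats from 7 laboratories in 28 groups of 4 to 6 rats. Rats weighed 175 to 250 g, and their age is not given in the sources used here. The values are MAS5 signals in the submitters' scaling.

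The pilocarpine rats of laboratories A and B received pilocarpine (300 to 350 mg/kg) after methylscopolamine (1 mg/kg), and status epilepticus, a continuous seizure, was stopped with pentobarbital (25 mg/kg) after 90 min. Kainate rats of laboratory A received kainic acid (5 mg/kg each hour) and status epilepticus ended by itself after 6 to 8 h, while those of laboratory B received a first dose of 7.5 mg/kg, then 5 mg/kg each hour, and the seizure was stopped with pentobarbital at 90 min. SSSE is the labels' abbreviation for the model of the seventh laboratory, in which status epilepticus sustains itself. In pilocarpine and kainate each laboratory contributed 6 rats at each of 3 times (day 1, day 3 and day 10), and SSSE contributed 6, 5 and 4 rats at these times. In kindling, where seizures are built up by repeated stimulation, laboratories A and B each took 6 rats at stage 2, stage 4 and stage 5. Every laboratory had its own controls, 6 rats each and 5 in SSSE, 41 in all; pilocarpine controls were given methylscopolamine and saline, kainate controls were given saline, and what the SSSE and kindling controls received is not stated in the labels as used here. The letters A and B stand for different laboratories in each model, so model and laboratory cannot be told apart.

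New granule cells are born in the adult rat dentate gyrus and pass through a stage in which they make Dcx, a protein that binds and stabilises microtubules in migrating cells and growing processes. Sox4 and Sox11 are related transcription factors that, in chick and mouse, switch on neuronal genes such as Tubb3 and Dcx in young neurons. Gap43 is a membrane protein of the growth cone, Stmn2 (SCG10) loosens microtubules there, Dpysl3 (CRMP4) belongs to a family that links guidance signals to the cytoskeleton, and the beta-tubulins are building blocks of microtubules. Calb2 is made for a short time by newborn granule cells in mice, and also by some interneurons.

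The sequence upstream of the start site is shown for the genes that carry the main results and have an entry in RefSeq's promoter table (assembly GRCr8). That table held 6 of the 10 genes; Sox4, Calb2, Gap43 and Stmn2 are named only. Each line gives the 250 bases before the annotated start, 5′ to 3′ on the gene's own strand, and capitals mark matches to the motifs searched.
Sox11, chr6:49738795-49739044, minus strand: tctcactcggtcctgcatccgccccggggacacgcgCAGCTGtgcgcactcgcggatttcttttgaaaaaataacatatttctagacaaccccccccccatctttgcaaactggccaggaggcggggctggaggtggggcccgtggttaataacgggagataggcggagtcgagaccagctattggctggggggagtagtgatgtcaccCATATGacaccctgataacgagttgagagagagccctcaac
Tubb6, chr18:63213037-63213286, plus strand: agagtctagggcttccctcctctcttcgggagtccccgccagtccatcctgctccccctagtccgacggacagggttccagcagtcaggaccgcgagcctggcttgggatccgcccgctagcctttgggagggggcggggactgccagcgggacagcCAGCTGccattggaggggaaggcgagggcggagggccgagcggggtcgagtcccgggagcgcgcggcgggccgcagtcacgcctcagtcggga
Dcx, chrX:112304162-112304411, minus strand: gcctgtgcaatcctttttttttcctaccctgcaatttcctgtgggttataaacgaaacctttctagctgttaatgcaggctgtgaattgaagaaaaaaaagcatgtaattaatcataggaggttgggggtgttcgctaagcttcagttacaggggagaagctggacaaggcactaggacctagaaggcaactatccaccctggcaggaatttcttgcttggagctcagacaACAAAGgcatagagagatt
Tubb2b, chr17:30952836-30953085, plus strand: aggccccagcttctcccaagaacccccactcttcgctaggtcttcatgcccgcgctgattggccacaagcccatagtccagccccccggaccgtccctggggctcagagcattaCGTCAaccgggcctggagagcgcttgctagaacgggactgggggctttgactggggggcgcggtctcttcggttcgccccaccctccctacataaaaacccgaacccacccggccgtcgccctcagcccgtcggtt
The motifs, searched on both strands in windows of 300 bases (250 before and 50 after the start), were the cAMP response half-site TGACG, the AP-1 site TGANTCA, the SOX-type site ACAAAG and the E-box CANNTG that neuronal basic helix-loop-helix factors bind. Among 33469 rat promoters, 21.2% held the half-site, 7.33% the AP-1 site, 18.8% the SOX-type site and 72.1% an E-box. Sox11 held 2 E-boxes (first bases at -214 and -41), Tubb6 held 1 E-box (-93), Dcx held 1 SOX-type site (-19), Tubb2b held 1 half-site (-136), and Tubb3 held none of the 4 motifs. No AP-1 site was found in the windows of these 6 genes, and no match overlapped another. The Dcx window differed in base composition, with 45.0% G and C against 58.0% in Sox11, 64.3% in Tubb2b and 70.7% in Tubb6 (median over the promoters, 51.7%). The Dcx entry starts inside the gene's annotated span (X, 112227455 to 112370291), so it is an internal start. A match describes letters, not a bound site.

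Differences are given as log2(signal + 16), averaged over the laboratories of a model, each time against that laboratory's own controls, with their standard error; adjusted p-values are from limma with Benjamini-Hochberg adjustment over the 10761 genes, and a gene is said to rise or fall only where that value is under 0.05. Signals of different probe sets are not set against each other. The bulk samples give one value per rat, so fewer cells of a type and less RNA per cell cannot be told apart. The granule cell genes Prox1 and Calb1 lay above their array's median in 41 of 41 controls, and so did Gad1, which interneurons make, the astrocyte gene Gfap and the myelin gene Mbp. The defining phagocyte genes Aif1 and Cd68 were above the median in 4 and 0 of 41 controls, and the division gene Mki67 in 0. Array medians ran from 27.9 to 54.2 signal units. The arrays of 6 rats correlated with the rest of their group by more than 0.02 less than the group's median (SSSE day 3 rat 4, kainate A day 1 rat 1, kainate B day 10 rat 5, pilocarpine B day 10 rat 2, and pilocarpine A day 10 rats 2 and 5), and 2 rats carry labels that contradict each other (SSSE day 1 rat 3 and kindling A stage 2 rat 4). Results that change without them are given with both values.

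On day 1 after status epilepticus, Sox4 and Dpysl3 passed in no model, and the other genes passed in at least 1, higher or lower by gene and model. In kainate rats 5 of the 10 rose (Tubb6, Sox11, Gap43, Dcx and Tubb3) and 2 fell (Calb2 and Stmn2), where 41.6% of the genes tested passed (22.2% higher, 19.4% lower). In pilocarpine rats 3 rose (Sox11, Gap43 and Tubb6) and 3 fell (Tubb2b, Stmn2 and Dcx), where 32.1% of genes passed (15.8% higher, 16.3% lower). In SSSE rats 4 rose (Sox11, Tubb6, Dcx and Tubb2b) and 0 fell, where 12.5% passed (5.51% higher, 7.02% lower). The median change of the 10 genes was -0.03 in pilocarpine, 0.45 in kainate and 0.53 in SSSE, with medians of 0.00, 0.02 and 0.00 over the genes tested.

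**Figure D1:**
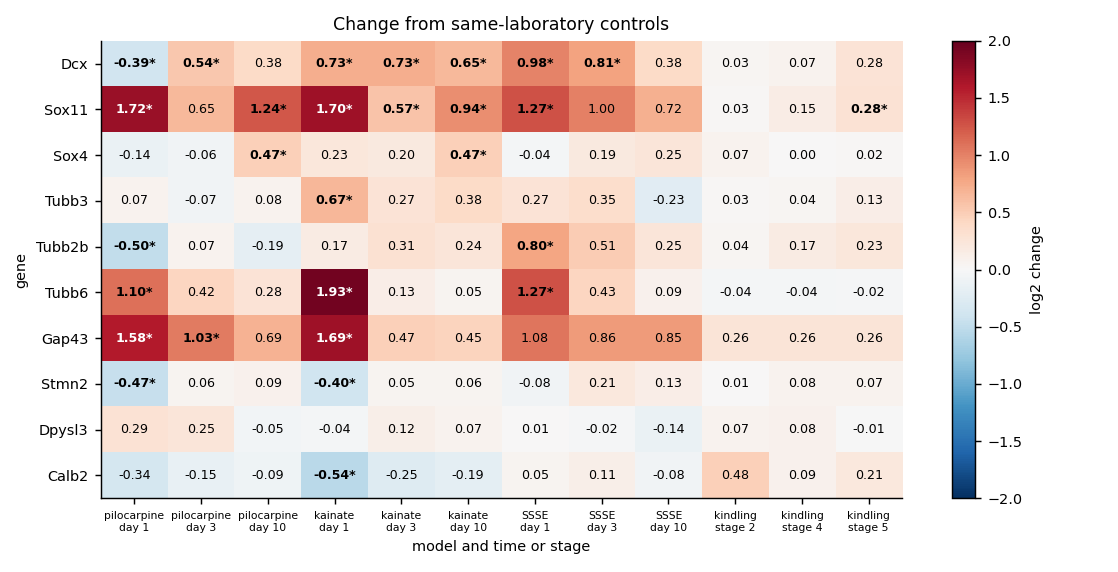
Log2 change of each gene (rows) from the controls of the same laboratory, in each model at each time or stage (columns); blue is lower and red is higher than control, and bold values with an asterisk passed limma's adjusted p of 0.05. Sox11, Tubb6 and Gap43 have the strongest colours on day 1, where Sox11 reached 1.72 in pilocarpine and Tubb6 1.93 in kainate, and the kindling columns are pale, with 0.48 for Calb2 at stage 2 as the highest value.

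Fewer of the genes passed at later times. On day 3 Dcx and Gap43 rose in pilocarpine rats (11.7% of genes passed, 7.74% higher and 3.92% lower), Dcx and Sox11 rose in kainate rats (7.96% of genes passed, 4.66% higher and 3.30% lower), and Dcx rose in SSSE rats (3.14% of genes passed, 1.66% higher and 1.48% lower). On day 10 Sox11 and Sox4 rose in pilocarpine rats (8.93% of genes passed, 3.82% higher and 5.11% lower), Sox11, Dcx and Sox4 rose in kainate rats (6.28% of genes passed, 2.57% higher and 3.71% lower), and 0 of 10 passed in SSSE (0.344% of genes passed, 0.177% higher and 0.167% lower), where 1 had an unadjusted p under 0.05 in limma. None of the 10 fell on day 3 or day 10 in these models. The split of all genes by direction depends on scaling: with each array centred on its median, 60.7% of the genes that passed on kainate day 10 were higher, against 41.0% as deposited, with 58.6% against 42.8% on pilocarpine day 10 and 56.6% against 44.0% on SSSE day 1. In kindling 0 of 10 passed at stage 2 and at stage 4, where 2 and 1 of them had an unadjusted p under 0.05 and 0% of all genes tested passed, and Sox11 alone rose at stage 5 (7.10% of genes passed, 3.23% higher and 3.87% lower).

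Sox11 rose in every status epilepticus model on day 1. In pilocarpine laboratory A its signal was 48.9 to 155 (median 69.5) on day 1, against 2.79 to 33.2 (median 9.68) in controls. Laboratory B had 17.3 to 117 (median 61.1) on day 1, against 1.32 to 22.2 (median 6.36) in controls. Day 1 rats exceeded every control of their laboratory in 11 of 12 cases, and the change was 1.72 ± 0.26 (adjusted p = 1.22e-06), a 3.30-fold difference on the offset scale. In kainate laboratory A the day 1 signals were 23.3 to 47.9 (median 32.6), against 0.988 to 11.1 (median 4.81) in controls. Kainate laboratory B gave 64.5 to 115 (median 96.2) on day 1, against 3.67 to 15.4 (median 7.12) in controls. The groups did not overlap in either laboratory, and the change was 1.70 ± 0.18 (adjusted p = 1.88e-10). In SSSE the day 1 rats had 8.81 to 89.3 (median 32.6), against 2.45, 4.3, 4.79, 5.07 and 6.96 in the 5 controls, again without overlap (1.27 ± 0.30, adjusted p = 0.0118).

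The rise in Sox11 was smaller on day 3 than on day 1 in pilocarpine and kainate, and signals were high again in some rats on day 10. Day 3 minus day 1 was -1.07 ± 0.26 in pilocarpine (adjusted p = 0.00207) and -1.13 ± 0.18 in kainate (adjusted p = 4.11e-06). Day 10 minus day 3 was 0.59 ± 0.26 in pilocarpine and 0.37 ± 0.18 in kainate, and neither passed (adjusted p = 0.269 and 0.405). Against controls the pilocarpine day 3 change was 0.65 ± 0.26 (adjusted p = 0.093). It passed without the pilocarpine rats that stood apart, which were all day 10 rats (adjusted p = 0.0256). Leaving them out kept the day 3 change at 0.65 and lowered its standard error to 0.20. The kainate day 3 change was 0.57 ± 0.18 (adjusted p = 0.0419), a call lost in 4 of 13 alternative settings. On day 10 the spread was wide, from 13.4 to 206 signal units in pilocarpine A and from 8.53 to 153 in kainate B. Against controls the day 10 change was 1.24 ± 0.26 in pilocarpine (adjusted p = 0.00137) and 0.94 ± 0.18 in kainate (adjusted p = 0.000556), with 6 and 10 of 12 rats above every control of their laboratory. In SSSE the 5 day 3 rats (11.7, 16.9, 19.1, 30.3 and 66.0) and the 4 day 10 rats (12.1, 17.4, 17.8 and 26.2) also lay above every control, yet neither difference passed limma's test (adjusted p = 0.0835 and 0.508). At kindling stage 5 Sox11 was 0.28 ± 0.09 above control (adjusted p = 0.044), with signals 6.59 to 14.8 (median 9.11) in laboratory A against 2.41 to 11.0 (median 4.44) in its controls. Laboratory B had 4.66 to 32.2 (median 8.65) at stage 5, against 4.41 to 8.94 (median 4.82) in its controls, so the groups overlapped in both laboratories. That call was lost in 4 of 13 alternative settings, among them a pseudocount of 64 (0.10) and no filter.

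Sox11 and Tubb6 were dim in controls. Neither lay above its array's median in any of the 41 controls, against 22 and 18 of the 30 day 1 rats of the status epilepticus models, and they passed the filter on dim probe sets only through the groups in which they were raised. Without that filter they kept their day 1 calls, but the size depends on the number added before taking logs. With 64 in place of 16 the pilocarpine day 1 change of Sox11 was 0.86, and with 1 it was 2.95.

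**Figure D2:**
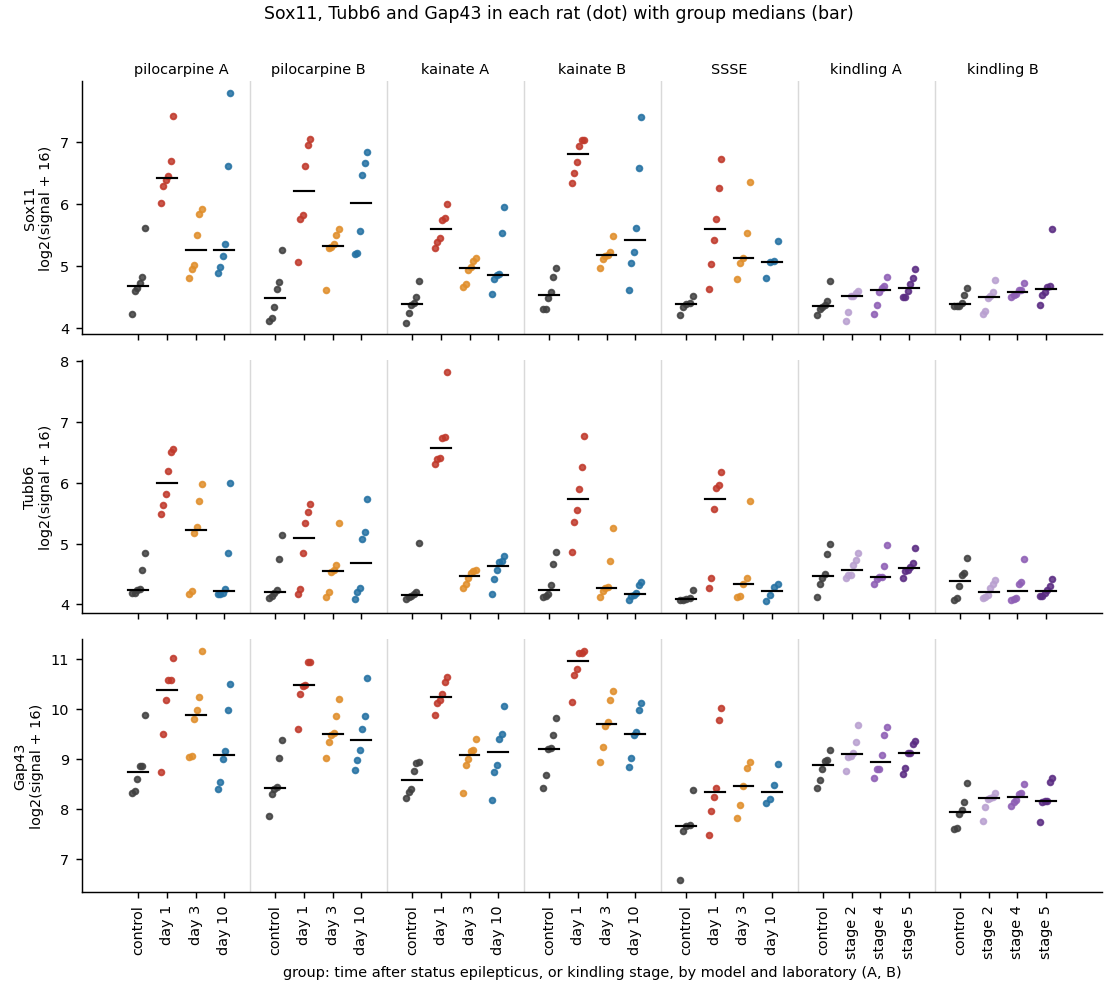
Each dot is 1 rat and each bar the median of a group; the vertical axes give log2(signal + 16) of Sox11, Tubb6 and Gap43, and the horizontal axis runs through the 28 groups, from control to day 10 or stage 5 within each laboratory. All day 1 kainate rats stand above the controls of their laboratory in the 3 panels, some day 1 pilocarpine rats overlap theirs (9 of 12 rats lie above for Tubb6), and the kindling groups overlap their controls.

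Sox4 followed another course, with no change passed on day 1 and a rise on day 10. In kainate laboratory A its signal was 376 to 788 (median 512) on day 10, against 226 to 413 (median 358) in controls. In kainate laboratory B it was 559 to 898 (median 669) on day 10, against 437 to 646 (median 519) in controls. The groups overlapped, with 9 of 12 rats above every control of their laboratory, and the change was 0.47 ± 0.10 (adjusted p = 0.00174). The pilocarpine day 10 change was 0.47 ± 0.15 (adjusted p = 0.0415), and without the rats that stood apart it was 0.27 and did not pass. The highest day 10 value, 1802 in laboratory A, lay far above that group's median of 712. A second Sox4 probe set gave 0.39 on pilocarpine day 10, which did not pass. On kainate day 10 it gave 0.39 and passed in a limma fit by probe set (adjusted p = 0.0165). The dimmer Sox4 probe sets that were kept gave 0.31, 0.35 and 0.16 on pilocarpine day 10. On kainate day 10 they gave 0.39, 0.40 and 0.27, and none of these values passed in that fit. On day 1 the Sox4 changes were -0.14, 0.23 and -0.04 in pilocarpine, kainate and SSSE.

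Tubb6, the class V beta-tubulin, rose on day 1 in the 3 status epilepticus models and passed at no later time. In kainate laboratory A the day 1 signals were 63.5 to 211 (median 80.2), against 1.04 to 16.2 (median 1.76) in controls. Kainate laboratory B had 13.1 to 93.0 (median 37.3) on day 1, against 1.41 to 12.9 (median 2.93) in controls. The groups did not overlap in either laboratory, and the change of 1.93 ± 0.16 (adjusted p = 7.72e-14) was 3.81-fold on the offset scale, and this size depends on the number added before the log (0.91 on the log2 scale with 64 added and 3.81 with 1). By day 3 the kainate change was 0.13 ± 0.16 and by day 10 0.05 ± 0.16, and day 3 minus day 1 was -1.80 ± 0.16 (adjusted p = 3.28e-12). In pilocarpine laboratory A the day 1 rats had 28.7 to 78.1 (median 48.8), against 2.23 to 12.8 (median 2.97) in controls, without overlap. Laboratory B overlapped its controls, with 2.1 to 34.2 (median 18.8) on day 1, against 1.21 to 19.5 (median 2.5) in controls. The mean pilocarpine change was 1.10 ± 0.22 (adjusted p = 0.000139), made up of 1.65 ± 0.31 in laboratory A and 0.54 ± 0.31 in laboratory B, which alone did not pass (adjusted p = 0.251). SSSE day 1 rats had 3.33 to 56.5 (median 37.7), against 0.846, 0.857, 1.12, 1.18 and 2.88 in the 5 controls, without overlap (1.27 ± 0.32, adjusted p = 0.0151). The kindling changes lay between -0.04 and -0.02 and did not pass. The Tubb6 results rest on 1 of the gene's 2 probe sets. Its other probe set lay above the array median in 0 of 164 rats. That probe set gave 0.20, 0.09 and 0.03 on day 1 of pilocarpine, kainate and SSSE, and none of these passed in a limma fit by probe set.

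Gap43 rose on day 1 in pilocarpine and kainate, and on day 3 in pilocarpine. In pilocarpine laboratory A its signal was 411 to 2064 (median 1328) on day 1, against 306 to 927 (median 411) in controls. In laboratory B it was 757 to 1955 (median 1403) on day 1, against 217 to 646 (median 328) in controls. The day 1 rats stood above every control of their laboratory in 10 of 12 cases, and the change was 1.58 ± 0.26 (adjusted p = 4.83e-06). On day 3 it was 1.03 ± 0.26 (adjusted p = 0.00473) and on day 10 0.69 ± 0.26, which did not pass (adjusted p = 0.083) but did without the rats that stood apart (0.88, adjusted p = 0.0487). In kainate laboratory A the day 1 signals were 923 to 1584 (median 1186), against 283 to 474 (median 370.1) in controls. Kainate laboratory B gave 1111 to 2283 (median 1983) on day 1, against 324 to 894 (median 575) in controls. All 12 day 1 rats exceeded the controls of their laboratory (1.69 ± 0.18, adjusted p = 1.91e-10), with 1.68 in laboratory A and 1.70 in laboratory B. On day 3 the kainate change was 0.47 ± 0.18 (adjusted p = 0.106), lower than on day 1 by 1.22 on the log2 scale (adjusted p = 9.28e-07). SSSE day 1 rats were spread from 162 to 1019 (median 307), against 79.4, 172, 186, 189 and 319 in controls. The change of 1.08 ± 0.40 did not pass (adjusted p = 0.0766). It passed when SSSE day 1 rat 4 or rat 6 was left out (adjusted p = 0.0282 and 0.0433). The Gap43 results rest on 1 of the gene's 2 probe sets. Its other probe set lay above the array median in 0 of 164 rats. That probe set gave -0.09, -0.04 and 0.04 on day 1 of pilocarpine, kainate and SSSE, and none of these passed in a limma fit by probe set.

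Dcx, the usual marker of newborn neurons, did not move the same way in all models. In kainate laboratory A its day 1 signal was 286 to 400.4 (median 321), against 124 to 311 (median 155) in controls. Kainate laboratory B had 263 to 449 (median 323) on day 1, against 161 to 260.5 (median 203) in controls. The rise was 0.73 ± 0.13 on day 1 (adjusted p = 1.11e-05), with 10 of 12 rats above every control of their laboratory. It held at 0.73 ± 0.13 on day 3 (adjusted p = 9.62e-05) and 0.65 ± 0.13 on day 10 (adjusted p = 0.00082), and the F-test over the 3 days did not pass (limma, adjusted p = 0.834). In SSSE the day 1 rats had 136 to 363 (median 246), against 76.7, 107, 120.3, 129.9 and 138 in the controls, with 5 of 6 above every control and a change of 0.98 ± 0.18 (adjusted p = 0.00239). The 5 SSSE day 3 rats (187, 193, 205, 208 and 257) all exceeded the controls (0.81 ± 0.19, adjusted p = 0.0231), a call that was lost when control rat 1, control rat 5 or day 3 rat 3 was left out (0.79, 0.69 and 0.74).

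In pilocarpine laboratory A Dcx was lower on day 1, 133 to 289 (median 187), against 304 to 532 (median 362) in controls, and the groups did not overlap. In laboratory B the day 1 signals were 277 to 711 (median 338), against 285 to 463 (median 367) in controls, and the groups overlapped. The change was -0.95 ± 0.22 in laboratory A (adjusted p = 0.00129) and 0.17 ± 0.22 in laboratory B (adjusted p = 0.647). The mean of both was -0.39 ± 0.15 (adjusted p = 0.0474), a fall seen in laboratory A and not in laboratory B, and the difference between the laboratories did not pass (-1.11 ± 0.31, adjusted p = 0.271). The mean fall was lost in 4 of 13 alternative settings, where its adjusted p reached 0.0804. These were 64 added before the log, median centring, no filter, and only the first array of each rat. Control rats 1 to 5 of laboratory A each had 2 arrays, and no day 1 rat of that laboratory did. On day 3 Dcx showed a rise of 0.54 ± 0.15 (adjusted p = 0.015), with 8 of 12 rats above every control. Laboratory A had 406 to 763 (median 471) on day 3 and laboratory B 479 to 719.7 (median 567). Day 3 minus day 1 was 0.93 ± 0.15 (adjusted p = 2.77e-05). The day 10 change of 0.38 ± 0.15 did not pass (adjusted p = 0.117), and the kindling changes of Dcx ran from 0.03 to 0.28 without a pass. The Dcx results rest on 1 of the gene's 2 probe sets. Its other probe set lay above the array median in 0 of 164 rats. That probe set gave -0.03, 0.19 and 0.13 on day 1 of pilocarpine, kainate and SSSE, and none of these passed in a limma fit by probe set.

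**Figure D3:**
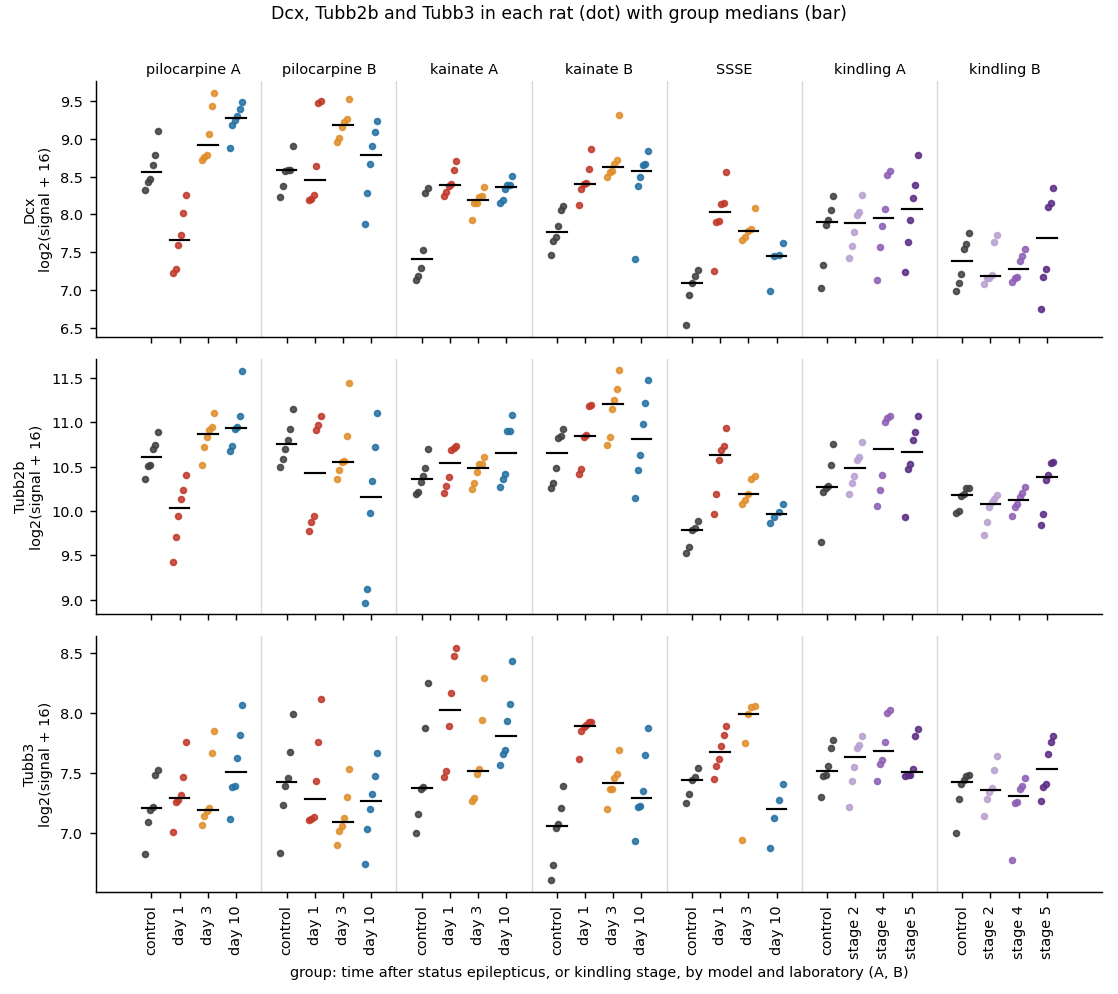
Log2(signal + 16) of Dcx, Tubb2b and Tubb3 (vertical axes) in each rat (dot) of the 28 groups with the group median (bar), from control to day 10 or stage 5 within each laboratory. Dcx is below control on day 1 in pilocarpine laboratory A (-0.95) and above control in kainate and SSSE, where the day 1 changes were 0.73 and 0.98.

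Tubb2b, a beta-tubulin prominent in developing neurons, also fell in pilocarpine and rose in SSSE on day 1. In pilocarpine its day 1 signal was 672 to 1343 (median 1037) in laboratory A, against 1297 to 1888 (median 1546) in its controls. Laboratory B had 863 to 2144 (median 1437) on day 1, against 1432 to 2261 (median 1712) in its controls. The groups overlapped, 8 of 12 rats lay below every control, and the change was -0.50 ± 0.18 (adjusted p = 0.0282). In SSSE the day 1 rats had 988 to 1949.5 (median 1569), against 719, 759.6, 870.0, 879.5 and 927 in the controls, without overlap (0.80 ± 0.14, adjusted p = 0.00169). The 5 SSSE day 3 rats (1062, 1102, 1153, 1296 and 1335) also lay above the controls, and that difference did not pass (0.51 ± 0.14, adjusted p = 0.0546). It passed in limma in 6 other settings, with adjusted p of 0.020 to 0.0489: with 64 added, with a robust and trended fit, and without day 1 rat 1, 2, 5 or 6. Day 1 rats enter the day 3 test only through the shared spread and the adjustment, and without them the change stayed at 0.51. In kainate the changes were 0.17, 0.31 and 0.24 on days 1, 3 and 10, and none passed.

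Tubb3, the neuron-specific beta-tubulin, rose only on day 1 of kainate among the 12 comparisons. Its signal was 161 to 357 (median 246) on day 1 in laboratory A, against 112 to 288 (median 150.2) in controls. Laboratory B had 179.9 to 227 (median 222) on day 1, against 81.7 to 152 (median 118) in controls, without overlap. The change was 0.67 ± 0.14 (adjusted p = 8.17e-05), against 0.07 in pilocarpine and 0.27 in SSSE, which did not pass. The kainate day 10 change of 0.38 (adjusted p = 0.0883) passed with a term for rat number (adjusted p = 0.00533), with median centring (0.0398) and with all 28 groups in 1 fit (0.0359). The SSSE day 3 change of 0.35 (adjusted p = 0.256) became 0.56 and passed in limma without day 3 rat 2 (adjusted p = 0.00947). The probe set used for Tubb3 is of the type that can match more than 1 transcript of a family, so other beta-tubulins may add to its signal, and the other Tubb3 probe set lay above the array median in 2 of 164 rats.

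On day 1 Stmn2 fell in pilocarpine and kainate and Calb2 fell in kainate, while Dpysl3 passed in none of the 12 comparisons. The SSSE day 1 change of Stmn2 was -0.08 and did not pass (adjusted p = 0.574). Stmn2 had 1291 to 2481 (median 1467) signal units on day 1 in pilocarpine laboratory A, against 1944 to 2524 (median 2219.5) in controls. Laboratory B had 1277 to 3031 (median 1319) on day 1, against 1890.3 to 2522 (median 2391) in controls. Most day 1 rats, 9 of 12, lay below every control, and the change was -0.47 ± 0.12 (adjusted p = 0.00153). In kainate laboratory A Stmn2 had 1672 to 2108 (median 2019.9) on day 1, against 2159 to 2861 (median 2487) in controls. In laboratory B it had 1442 to 2282 (median 1703) on day 1, against 1883 to 2979 (median 2452) in controls. The kainate change was -0.40 ± 0.08 (adjusted p = 5.78e-05), with 10 of 12 rats below every control, and by day 3 the changes were 0.06 in pilocarpine and 0.05 in kainate. A second Stmn2 probe set, above the array median in 164 of 164 rats, did not show the fall, with 0.03 in pilocarpine (adjusted p = 0.897) and -0.08 in kainate, so the fall rests on 1 of the gene's 2 probe sets.

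Calb2 had 33.1 to 55.5 (median 50.2) on day 1 in kainate laboratory A, against 25.4 to 145 (median 69.6) in controls. In laboratory B it had 41.0 to 104 (median 59.9) on day 1, against 81.8 to 197 (median 96.2) in controls. The groups overlapped in both laboratories (-0.54 ± 0.18, adjusted p = 0.0115), with 5 of 12 rats below every control. These were 0 of 6 rats in laboratory A and 5 of 6 in laboratory B, and the changes were -0.40 and -0.68. Pilocarpine day 1 gave -0.34 ± 0.23 (adjusted p = 0.256) and SSSE day 1 0.05 ± 0.16, and neither passed. Beside it, the interneuron list had 1 of its 8 measured genes lower and 0 higher on day 1 of each of the 3 models, and its part in the Calb2 result was not tested. Of all genes tested, 16.3%, 19.4% and 7.02% were lower and 15.8%, 22.2% and 5.51% higher on day 1 of pilocarpine, kainate and SSSE. Dpysl3 was dim, above its array's median in 29 of 164 rats, and its changes ran from -0.14 (SSSE day 10) to 0.29 (pilocarpine day 1).

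Which of these genes differ between models was asked with an F-test over pilocarpine, kainate and SSSE at each day. On day 1 Dcx (adjusted p = 0.000216), Tubb2b (0.00106) and Tubb3 (0.0427) passed, 3 of 10 genes, where 5.72% of the genes tested did. Tubb6 came next at 0.0562, while Sox11 (0.651) and Gap43 (0.535) did not pass. On day 3 and day 10, 0 of the 10 genes passed in limma (0.446% and 0.0650% of genes tested), with 0 and 1 at an unadjusted p under 0.05.

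Change over the 3 times within a model was tested likewise. In pilocarpine 7 of 10 genes passed (Dcx, Gap43, Sox11, Sox4, Stmn2, Tubb2b and Tubb6), where 24.6% of genes did, and in kainate 5 (Gap43, Sox11, Stmn2, Tubb3 and Tubb6), where 35.2% did. In SSSE 0 passed in limma and 5 had an unadjusted p under 0.05 (3.19% of genes passed), and in kindling 0 passed and 1 had such a p (0.994%). From day 1 to day 3, Dcx, Tubb2b and Stmn2 rose and Sox11 and Tubb6 fell in pilocarpine (23.2% of genes passed). In kainate over the same interval Stmn2 rose and Sox11, Tubb6, Gap43 and Tubb3 fell (31.1%). In SSSE 0 of 10 passed over that interval and 3 had an unadjusted p under 0.05 in limma (0.604% of genes passed). From day 3 to day 10, 0 of 10 genes passed in limma in pilocarpine, kainate or SSSE (1.68%, 0.743% and 0% of genes), with 2 genes at an unadjusted p under 0.05 in each model. Between kindling stages, 0 of 10 genes passed or had an unadjusted p under 0.05 in limma (0% of genes from stage 2 to stage 4 and 0.0186% from stage 4 to stage 5). From day 3 to day 10 Sox4 came closest, at 0.54 ± 0.15 in pilocarpine (adjusted p = 0.0549).

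Within models, laboratory A and laboratory B could be set against each other. None of the 10 genes passed the test of that difference in pilocarpine, kainate or kindling at any time. Of the 10761 genes 0% passed, except on kainate day 1 (0.00929%). On day 1, 2 of the 10 had an unadjusted p under 0.05 in limma in pilocarpine (Dcx and Tubb6) and 2 in kainate (Sox11 and Tubb6). Such a p was held by 3 on pilocarpine day 10, 1 on pilocarpine day 3, 1 at kindling stage 2 and 0 at the other times and stages. On pilocarpine day 10 Tubb2b changed by 0.37 in laboratory A and -0.74 in laboratory B. Dpysl3 changed there by -0.70 in laboratory A and 0.60 in laboratory B. Taken within a laboratory, 3 genes rose and 2 fell on pilocarpine day 1 in laboratory A (22.6% of genes passed, 10.2% higher and 12.4% lower), while 2 rose and 0 fell in laboratory B (15.1%, 7.91% higher and 7.20% lower). On kainate day 1, 4 rose and 1 fell in laboratory A (21.6%, 12.4% higher and 9.24% lower) and 5 rose and 2 fell in laboratory B (32.6%, 16.4% higher and 16.2% lower). On pilocarpine day 3, 0 of 10 genes passed in laboratory A and in laboratory B (4.72% and 3.62% of genes), with 2 and 3 at an unadjusted p under 0.05 in limma. On pilocarpine day 10 the counts were 0 in A, with 4 at an unadjusted p under 0.05, and 1 in B (0.753% and 8.38%). Kainate day 3 gave 0 in A, with 2 at such a p, and 1 in B (1.47% and 4.28%), and kainate day 10 gave 2 in A and 1 in B (2.06% and 0.892%). At kindling stage 5, 0 passed in A and in B (0.976% and 0.344%), with 3 and 1 at an unadjusted p under 0.05. Sox11 changed by 1.22 ± 0.26 in kainate laboratory A and 2.17 ± 0.26 in laboratory B. Tubb6 changed there by 2.45 ± 0.22 in laboratory A and 1.41 ± 0.22 in laboratory B.

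**Figure D4:**
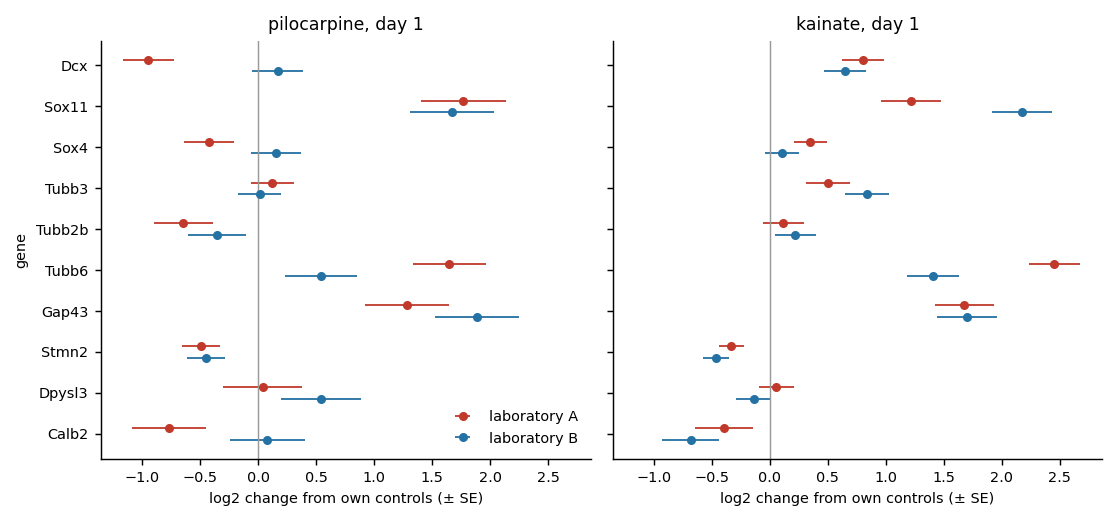
Log2 change on day 1 from the laboratory's own controls (horizontal axis, with standard error bars) for each gene (vertical axis) in pilocarpine and kainate, laboratory A in red and laboratory B in blue. Dcx in pilocarpine lies on opposite sides of 0 (-0.95 in A, 0.17 in B), and Gap43 in kainate coincides (1.68 and 1.70).

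Across the 164 rats, the deviations of the 10 genes from their group means were only weakly correlated in most pairs. The median Pearson correlation over the 45 pairs was 0.10, with 5 pairs above 0.3 and 12 below 0. Dcx and Tubb2b correlated most (0.53), followed by Sox11 and Tubb6 (0.40), and Tubb6 and Stmn2 least (-0.25). Over the 21 changes (7 laboratories at 3 times or stages), the values were 0.73 for Dcx with Tubb2b, 0.82 for Sox11 with Gap43, 0.78 for Tubb6 with Gap43, 0.04 for Dcx with Tubb6 and -0.73 for Tubb6 with Stmn2. These are descriptions, since genes of a rat share an array and changes of a laboratory share its controls.

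**Figure D5:**
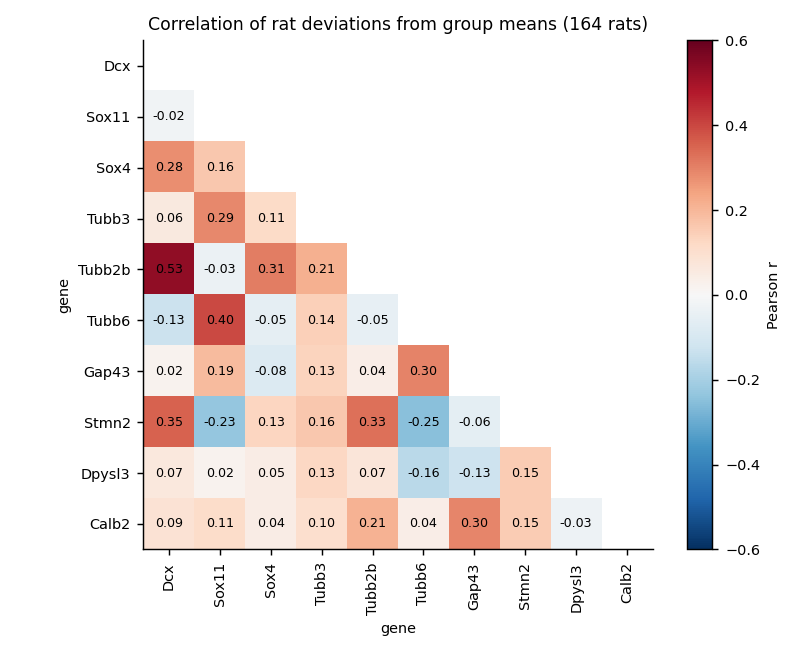
Pearson correlation between pairs of the 10 genes (rows and columns) of the deviations from group means over 164 rats; red is positive and blue negative. The Dcx and Tubb2b pair has 0.53 and the Tubb6 and Stmn2 pair -0.25, with a median of 0.10.

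The genes most like a member over the 21 changes, among the 10761 tested, were named by rank. Sox11 was followed most closely by Chgb (chromogranin B, a protein of dense-core vesicles; r = 0.93), Dok5 (0.93) and Lurap1l (0.92), and Gap43 by Dusp26 (a phosphatase), Sardh and Sorcs1 (0.94 each). Tubb6 was followed by Serpina3n (a protease inhibitor that reactive astrocytes make; 0.93), Mfap4 and Ube2u (0.92 each), and Dcx by Smarcd3, Evl (an actin regulator) and Armcx2 (0.85, 0.82 and 0.81). Calb2 was most like Acaca, Klhl26 and Plch2 (0.84, 0.83 and 0.81), and the mean of the 10 genes most like Plcxd3, Ackr1, Nalf1, 6330403K07Rikl and Wls (0.85 to 0.88).

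Other genes of young neurons moved in both directions. From this list and the next, at most 4 genes per comparison were open to naming. A gene not named at a time may therefore have passed there. Of 30 listed, 20 were measured, and on day 1 the numbers higher and lower were 3 and 8 in pilocarpine, 5 and 6 in kainate, and 4 and 2 in SSSE, where 32.1%, 41.6% and 12.5% of all genes tested passed. Nnat (neuronatin, abundant in developing brain) rose on day 1 by 2.83 in kainate, 2.42 in pilocarpine and 1.91 in SSSE. It was also higher on days 3 and 10 of pilocarpine (1.66 and 1.59) and on day 3 of kainate (1.34). Nhlh1, a helix-loop-helix factor of early neurons, fell on day 1 of kainate, pilocarpine and SSSE (-1.73, -1.24 and -1.51). It also fell in kainate on days 3 and 10 (-1.05 and -1.40), in pilocarpine on day 10 (-0.87), and at kindling stage 5 (-0.80, adjusted p = 0.00638). Neurod1, which drives granule neuron differentiation, fell on kainate day 1 (-1.14) and day 10 (-0.43). The ephrin receptor Epha5 fell on day 1 of pilocarpine (-1.35) and kainate (-1.02), and on days 3 and 10 of pilocarpine (-0.62 and -0.68). Dclk1, a relative of Dcx, rose on pilocarpine day 1 (1.11, adjusted p = 2.71e-06), where Dcx fell in laboratory A (-0.95) and not in laboratory B (0.17). The RNA-binding proteins Mex3a and Mex3b rose on SSSE day 1 (0.79 and 0.63) and day 3 (0.84 and 0.50). Mex3b also rose on day 3 of pilocarpine (0.68) and on days 3 and 10 of kainate (0.57 and 0.34). Ccnd2 fell on SSSE day 3 (-0.85), where its change was the largest of the list past the threshold. It also fell on days 3 and 10 of kainate (-0.63 and -0.66). Later, on day 3, the numbers higher and lower were 3 and 1 in pilocarpine, 3 and 3 in kainate and 2 and 1 in SSSE, and on day 10 they were 2 and 2, 1 and 3, and 0 and 0 (3 had an unadjusted p under 0.05 in limma on SSSE day 10). Of all genes tested, 11.7%, 7.96% and 3.14% passed on day 3 and 8.93%, 6.28% and 0.344% on day 10 in these models.

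Of 42 other genes of growth cones, tubulins and axon regrowth, 38 were measured. On day 1, 10 were higher and 5 lower in pilocarpine, 8 and 7 in kainate, and 4 and 0 in SSSE, where 32.1%, 41.6% and 12.5% of all genes tested passed, with list medians of -0.08, 0.07 and 0.04. Sprr1a, a gene induced in regrowing axons, rose on pilocarpine day 1 (2.13) and kainate day 1 (0.85), and the injury factors Atf3 (1.72) and Jun (0.91) rose on pilocarpine day 1. The tubulin Tubb5 rose on day 1 of kainate (0.83) and SSSE (0.58) and on day 10 of kainate (0.33) and pilocarpine (0.35), while Tuba8 fell on days 3 and 10 of kainate (-0.52 and -0.49) and Tuba4a on day 3 of pilocarpine (-0.80). The adhesion molecule Nrcam fell on kainate day 1 (-0.80), and the receptor Rtn4r, which restrains axon growth, fell on pilocarpine day 1 (-0.72). On day 3 the numbers of the 38 higher and lower were 1 and 2 in pilocarpine, 1 and 2 in kainate, and 0 and 0 in SSSE. On day 10 they were 2 and 0, 1 and 1, and 0 and 0. In SSSE 9 and 3 had an unadjusted p under 0.05 in limma on these days. Of all genes tested, 11.7%, 7.96% and 3.14% passed on day 3 and 8.93%, 6.28% and 0.344% on day 10. At kindling stage 5, 3 were higher (Tubb4b, Crmp1 and Kif3c, 0.20 to 0.26) and Jun was lower (-0.42). Of all genes tested, 3.23% were higher and 3.87% lower at that stage.

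Markers of the captured cell type and of other cells moved at the same times as the genes above. On day 1 of pilocarpine, kainate and SSSE, 15.8%, 22.2% and 5.51% of all genes tested were higher and 16.3%, 19.4% and 7.02% lower. On day 3 these shares were 7.74%, 4.66% and 1.66% higher and 3.92%, 3.30% and 1.48% lower. Of the 11 measured granule cell genes, 8, 9 and 5 were lower on day 1 of pilocarpine, kainate and SSSE, with list medians of -1.0, -0.87 and -0.79, and 0, 0 and 1 were higher. Their summed signal in kainate laboratory A was 6060 to 7291 on day 1, against 10126 to 12226 in controls. Of 12 phagocyte genes, 7 were higher and 1 lower on day 1 in pilocarpine and in kainate, 0 were higher and 1 lower in SSSE (3 at an unadjusted p under 0.05 in limma), and 10 were higher on day 3 in pilocarpine and in kainate. The summed phagocyte signal in kainate laboratory A was 668 to 1615 (median 1075) on day 1, against 308 to 1034 (median 364) in controls. In kainate laboratory B it was 504 to 896 (median 672) on day 1, against 438 to 746 (median 542) in controls. In SSSE it was 238 to 1174 on day 1, against 281 to 466 in controls. Of 10 genes of dividing cells and progenitors, 3 were higher on day 1 and 7 on day 3 in pilocarpine, 5 on each of these days in kainate, and 0 on days 1 and 3 in SSSE (3 and 4 at an unadjusted p under 0.05 in limma). Of 11 astrocyte genes, 6 fell and 2 rose on day 1 in pilocarpine and in kainate, 4 fell and 1 rose in SSSE, and on day 3, 6 rose in pilocarpine and 4 in kainate. The oligodendrocyte list had 0 of 8 genes past the threshold on day 1 in the 3 models (1, 0 and 1 at an unadjusted p under 0.05 in limma), and the vessel list 1, 1 and 0 of 6. The part of these cells in the changes of Sox11, Tubb6, Gap43 and Dcx was not tested.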

How the data were processed

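Affymetrix rat expression arrays were made from laser-captured granule cell RNA. The deposited intensity values are MAS5 signals, per the submitters' processing notes, scaled by the authors to a trimmed mean of about 150; per the labels' protocols RNA pools had a RIN above 7. Other upstream settings and software versions are not given in the sources used here.

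Here, arrays of the same rat were averaged, 16 was added, and log2 values were taken. Probe sets with 1 gene symbol that lay above their own array's median in at least 6 rats were kept (14282), and the brightest was taken for each of 10761 genes; 57 array controls, 436 probe sets with several symbols and 9780 with none were left out. Each model was fitted with limma 3.58.1 (R 4.3.3), with a term for every laboratory and time, and times were set against the same laboratory's controls and averaged over laboratories. P-values were adjusted by Benjamini-Hochberg with a threshold of 0.05. The fits were tested on simulated data. The labels call the rats separate samples, and precision is limited by their number.

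The genes, the companion and marker lists and the tests were chosen with earlier results of these data known. Genes named from the companion lists were those with the largest changes past the threshold, and the genes most alike were ranked by Pearson correlation. Alternatives changed the pseudocount, scaling, filter, probe set rule, repeated arrays, fit, laboratories and rats; the second probe sets of Sox4 and Stmn2 were added after seeing the data.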

Additional observations from a re-analysis of the deposited data

Results flagged for a closer look

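In 20 of the 280 combinations of gene and group, 1 rat stood apart from the rest of its group by Dixon's criterion, where chance alone gives about 14. All values in this paragraph are log2(signal + 16). Dcx was lowest in kainate B day 10 rat 5 (7.41) and highest in kainate B day 3 rat 4 (9.31). Sox11 was highest in kindling B stage 5 rat 1 (5.59) and lowest in pilocarpine B day 3 rat 3 (4.61). Calb2 was highest in kainate A day 10 rat 6 (7.21) and lowest in pilocarpine B day 10 rat 3 (5.14), pilocarpine B day 3 rat 2 (4.24) and pilocarpine A day 1 rat 2 (4.30). Tubb3 was lowest in kindling B stage 4 rat 6 (6.78), SSSE day 3 rat 2 (6.94) and kainate B day 1 rat 6 (7.61). Tubb6 was highest in SSSE control rat 3 (4.24), kainate A control rat 5 (5.01), kainate A day 1 rat 5 (7.83), SSSE day 3 rat 4 (5.71) and pilocarpine A day 10 rat 5 (6.00). Gap43 was highest in pilocarpine A control rat 1 (9.88). Stmn2 was lowest in kainate A day 1 rat 4 (10.72) and highest in pilocarpine A day 1 rat 1 (11.29). Dpysl3 was lowest in kindling A control rat 2 (4.21).

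The day 1 change differed between pilocarpine, kainate and SSSE for Dcx (limma F-test, adjusted p = 0.000216), Tubb2b (0.00106) and Tubb3 (0.0427). Model and laboratory cannot be told apart in this test.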

How the results depend on the processing

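With both laboratories in the fit, of 468 recomputed values of gene and comparison pairs that had passed, 445 kept direction and side of the threshold, 22 no longer passed and 1 turned sign (Stmn2 on pilocarpine day 1, 0.032 with its second probe set); of 1716 that had not passed, 22 did. With single laboratories, of 92 that had passed, 49 kept both, 41 no longer passed and 2 turned sign (Dcx on pilocarpine day 1, 0.17 in laboratory B, fitted with A or alone), and 0 of 268 others passed in limma. The cause was not tested. The number of the 10 genes past the threshold moved as follows. SSSE day 3 gave 2 with a pseudocount of 1 or 64 or with a robust, trended fit, and 0 to 3 when single rats were left out (0 without control rat 1, control rat 5 or day 3 rat 3, and 3 without day 1 rat 5). Kainate day 3 gave 1 with a pseudocount of 64, quantile normalization, no filter, all 28 groups in 1 fit or laboratory B, and 0 with laboratory A. Kindling stage 5 gave 0 with a pseudocount of 64, no filter, all groups in 1 fit, a robust, trended fit, or either laboratory. Pilocarpine day 10 gave 1 with quantile normalization, no filter, the mean of kept probe sets or laboratory B, and 0 with laboratory A. Pilocarpine day 3 gave 0 in either laboratory, pilocarpine day 1 gave 2 in laboratory B, and kainate day 10 gave 1 in laboratory B and 0 with it fitted alone. Single laboratories hold fewer rats. For settings other than the main fit and a laboratory within it, the share of all genes past the threshold is not given here. With those settings a shift in the 10 genes cannot be told from a shift over all genes. With the rat number as a block, Tubb3 passed on kainate day 3 (0.27) and day 10 (0.38). The numbers were not taken as pairs, since 89 of 240 same-numbered pairs, not all, had a correlation over 0.1; 50 of 164 rats correlated best with their own number, where chance gives 27.2, a hint from the data and not from the design. Sizes for dim genes depend on the pseudocount, with 0.91 to 3.81 for Tubb6 on kainate day 1.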
